A study of Homo sapiens with 24 samples.

Results

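The comparison described here sets a single short hairpin against CHD1, named hairpin B, against a hairpin aimed at GFP in the cell line MCF10A PE. MCF10A is an immortalised human breast epithelial line that does not form tumours, and the submitters describe PE as its non-transformed form and a second form, PM, as transformed by MYC. The 8 libraries were chosen by their labels, which name the line, the hairpin and the replicate, and they are part of 24 libraries in 6 groups. Hairpin B in PE and the GFP hairpin in PE had 4 libraries each. Every culture, controls included, received doxycycline at 50 ng/ml for 72 h, and all were grown with horse serum, epidermal growth factor, hydrocortisone, cholera toxin and insulin. The libraries are called biological replicates in the labels, but how their cultures were kept apart is not said, so p-values measure only the spread between these libraries. Nor do the labels say whether the hairpin lines were clones.

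CHD1 is a chromatin remodeller. Its chromodomains bind histone tails that are methylated at active promoters, and its ATPase spaces nucleosomes along transcribed genes and helps RNA polymerase II pass the first of them. Breast epithelium has an outer basal layer, marked by basal keratins and by laminins and hemidesmosomes that anchor it to the basement membrane, and an inner luminal layer marked by simple keratins. E-cadherin and desmosomes join the cells of both layers, and the splicing factor ESRP1 sets epithelial forms of many transcripts.

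RNA was measured as poly(A) RNA-seq counts per gene. The 4 GFP libraries held 4142862, 18893284, 66165036 and 51091676 counts and the 4 hairpin B libraries 37702025, 21234925, 78736060 and 74880848 counts, in the order of their replicate numbers, which carry no rank. GFP replicate 1 was the shallowest, and 3 counts in it equal 0.724 CPM (counts per 1000000 counts). Levels below are CPM after TMM scaling, given as mean ± SD over 4 libraries or as the 4 libraries in replicate order. Transcripts of the mitochondrial genome took 4.68 to 5.67% of counts in the GFP libraries and 4.37 to 6.27% with hairpin B. All 16 basal mammary marker genes were tested, and their summed level ran from 4476 to 6486 CPM with the GFP hairpin and from 2738 to 3133 CPM with hairpin B. Of 16 luminal markers 9 were tested (sum 552 to 659 against 691 to 757 CPM), with 2 of the 16 at 0 in all GFP libraries and 6 at 0 in all hairpin B libraries. Although the sum was higher, 4 of the 9 were lower and 2 higher past the threshold used below, with a median log2 change of -0.07. When the 8 libraries were fitted alone, 2 were lower and 1 higher. KRT8, described below, was one of the 2 that were higher. Immune markers summed to 65.2 to 76.5 CPM and 57.5 to 86.1 CPM, with 8 and 6 of 14 at 0. Markers of fibroblasts and endothelium summed to 61.5 to 75.2 CPM and 32.0 to 50.3 CPM, with 3 and 1 of 12 at 0. In RNA from whole cultures, fewer cells of a type and less RNA per cell cannot be told apart.

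CHD1 itself, at chr5:98853985-98929007 (GRCh38.p14), stood at 86.8, 76.5, 74.2 and 77.6 CPM in the GFP libraries and at 29.8, 28.7, 23.6 and 30.2 CPM with hairpin B. Every hairpin B library was below every GFP library, and the gene was 2.80-fold lower (log2 -1.48, SE 0.10, adjusted p 1.4e-13, edgeR quasi-likelihood test with Benjamini-Hochberg adjustment). An exact permutation test of the 8 values, two-sided, gave p = 0.0286, the smallest that 4 against 4 libraries allow. MYC, the gene added in the PM line, was at 275 ± 17.7 CPM with the GFP hairpin and 275 ± 24 CPM with hairpin B, and the groups overlapped (log2 -0.00, SE 0.06, adjusted p 0.971, exact permutation p = 0.971).

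Among 23 genes of the CHD and ISWI remodeller families, 3 rose and 6 fell, among them CHD1, the gene the hairpin targets. Of all tested genes, 13.6% rose and 13.2% fell, and the count that rose is near that share. SMARCA1, an ISWI ATPase that slides nucleosomes, went from 5.56, 4.13, 5.94 and 5.96 CPM to 38.4, 40, 42.6 and 33.1 CPM, a rise of 7.07-fold (log2 2.82, SE 0.15, adjusted p 3.0e-16) with no overlap between the groups. CHD2, the closest relative of CHD1, rose 1.32-fold to 129.9 ± 6.95 CPM, whereas CHD7 fell 1.64-fold to 16.9 ± 2.88 CPM. Of 13 histone chaperone genes 3 rose and 4 fell. SUPT16H, a subunit of the FACT complex that moves histones ahead of the polymerase, rose from 128 ± 11.7 to 245 ± 21 CPM. SSRP1, the other FACT subunit, fell from 384 ± 31.5 to 319 ± 19.6 CPM. ASF1A, which hands over histones H3 and H4, rose from 8.09 ± 0.375 to 18.4 ± 2.50 CPM, whereas the chaperone genes NASP and CHAF1B each fell 1.49-fold. TCEA2, an elongation factor that restarts stalled polymerase, rose 2.41-fold (log2 1.27, SE 0.13, adjusted p 1.8e-09). Of 12 genes tested in the MYC network, 1 rose and 3 fell, or 5 with library sizes alone. MAX, the obligate partner of MYC, fell from 55.7 ± 8.71 to 30.7 ± 4.17 CPM. The one that rose was MXD4, which competes with MYC for MAX, from 102 ± 20.3 to 195 ± 16 CPM. Its relatives MXD1 and MXD3 fell 1.76-fold and 1.29-fold, the latter with overlapping groups.

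Across the 20820 genes tested, 5587 (26.8%) differed between hairpin B and the GFP hairpin at an adjusted p under 0.05. Of these, 2839 (13.6% of tested genes) were higher and 2748 (13.2%) were lower with hairpin B. Most changes were small: the median called gene changed 1.44-fold, 3095 calls (55.4%) were under 1.5-fold, and 1292 genes (6.21% of those tested) passed the threshold with at least a 2-fold change, 701 higher and 591 lower. At 8-fold or more there were 123 higher and 158 lower. The libraries of the groups did not overlap for 5254 genes (25.2%), and this held for 4385 of the 5587 called genes (78.5%). Calls depended on level: 3.90% of genes below 1 CPM passed, 21.3% from 1 to 10 CPM, 41.7% from 10 to 100 CPM and 50.8% above that. Protein-coding genes passed in 35.5% of 14186 cases and long non-coding RNA genes in 8.20% of 3806. Over all tested genes the median change was 0.01 on the log2 scale.

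**Figure D1:**
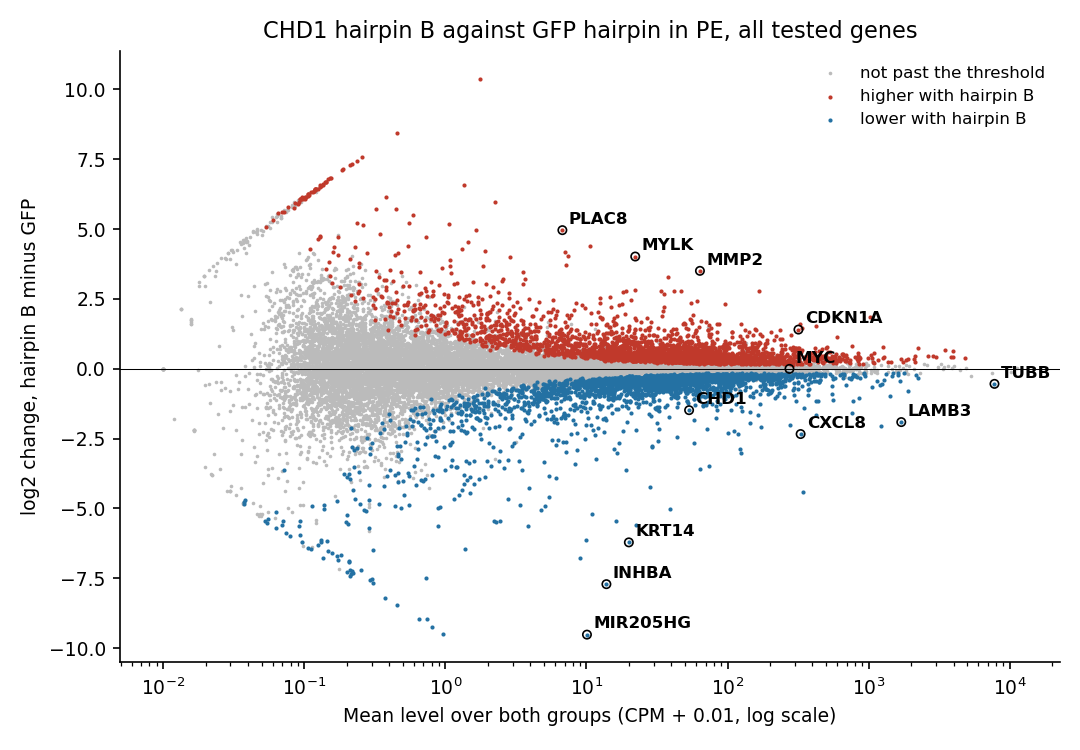
Each point is 1 of the 20820 tested genes, placed by its mean level over the 8 libraries (CPM + 0.01, log axis) and by its log2 change, hairpin B minus GFP hairpin in PE, with red and blue for genes past the threshold and circles for 12 genes picked as examples. Of the circled genes, MIR205HG, INHBA and KRT14 lie lowest, PLAC8 and MYLK lie highest, and MYC lies at the line of no change.

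The largest falls took some basal and stress keratins, some adhesion genes and some secreted signals almost to 0. The 12 largest falls by log2 change were taken from protein-coding genes with no overlap and a mean of at least 5 CPM in either group. They were INHBA, SERPINB4, KRT14, SERPINB3, ESRP1, MAL2, KRT16, ITGB6, CDH1, KRT17, CDH11 and FST, from 209.9-fold to 29.3-fold lower. All 12 met the limit through the GFP libraries alone, so their low level with hairpin B is partly a product of the choice. INHBA, whose product forms the growth factor activin A, went from 32.9, 26.2, 36.3 and 15 CPM to 0, 0.0916, 0.151 and 0.194 CPM. It held 3796 counts in the GFP libraries together and 28 in the hairpin B libraries (log2 -7.71, SE 0.65, adjusted p 2.1e-08). FST, the secreted antagonist that binds activin, fell from 6.56 ± 2.56 to 0.210 ± 0.0987 CPM. SERPINB3 and SERPINB4, neighbouring squamous cell carcinoma antigen genes of near-identical sequence, fell 69.7-fold and 111-fold. How their reads were divided is not given in the sources used here, which also holds for KRT6A, KRT6B and KRT6C, for KRT14, KRT16 and KRT17 with their pseudogene copies, and for TUBB, GAPDH, FTL, ribosomal protein and HLA genes.

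**Figure D2:**
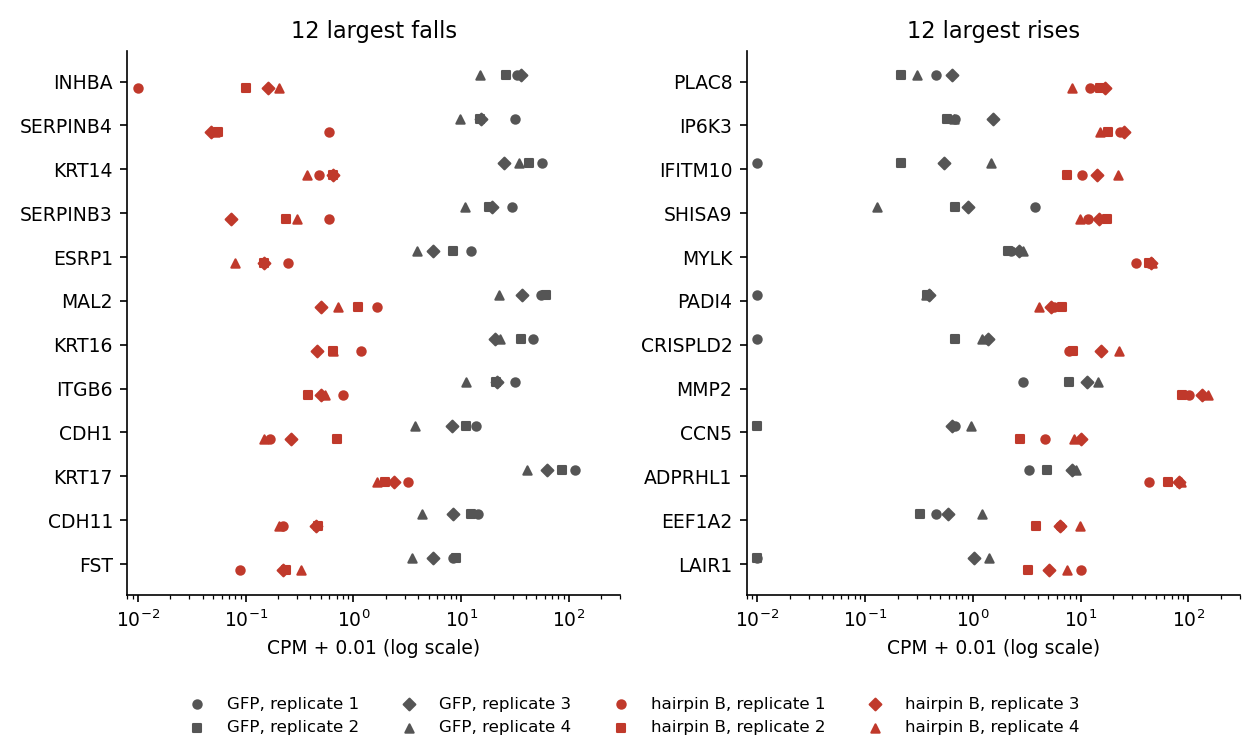
CPM + 0.01 in each of the 8 libraries (log axis, shape for the replicate) for the 12 largest falls on the left and the 12 largest rises on the right. The genes were chosen so that no hairpin B point overlaps the GFP points of its gene. Among the GFP points of the falls replicate 1 is highest for 9 of 12 genes and replicate 4 is lowest for 10 of 12.

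Keratins are the intermediate filaments of epithelia. KRT14, the basal layer keratin, stood at 55.8, 42.8, 25 and 34.1 CPM in the GFP libraries and at 0.474, 0.641, 0.640 and 0.360 CPM with hairpin B, 74.4-fold lower (log2 -6.22, SE 0.54, adjusted p 4.0e-08). KRT16, a keratin of stressed and wounded epidermis, fell from 31.5 ± 12.1 to 0.722 ± 0.305 CPM and KRT17 fell from 76.3 ± 32.2 to 2.29 ± 0.682 CPM. KRT6A, one of the partners of KRT16, had the third largest loss in CPM of all called protein-coding genes, from 2389, 2131, 1853 and 1525 CPM to 589, 511, 429 and 380 CPM. Of 8 basal and stress keratins tested, 7 were lower and none was higher, with a median log2 change of -2.46. The remaining one, KRT15, was at 7.04 ± 5.51 and 4.59 ± 1.72 CPM (adjusted p 0.562). KRT5, the type II partner of KRT14, fell least of the 7, from 1295 ± 304 to 829.6 ± 190.1 CPM, with overlapping groups (log2 -0.64, SE 0.20, adjusted p 0.0204). Its call was lost when the 8 libraries were fitted alone (adjusted p 0.107) and without hairpin B replicate 4 (0.0766), GFP replicate 1 (0.0603) or GFP replicate 2 (0.0853). Of 6 other keratins tested, simple keratins included, 1 rose and none fell (1 fell under 9 of the alternative settings). KRT8 rose from 237 ± 34.9 to 369 ± 16.9 CPM, and its partner KRT18 was at 219 ± 10 and 209.9 ± 7.85 CPM (adjusted p 0.492).

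Cell adhesion genes fell alongside them. CDH1, which encodes E-cadherin, was at 13.8, 11, 8.29 and 3.75 CPM with the GFP hairpin and 0.158, 0.687, 0.251 and 0.138 CPM with hairpin B (log2 -5.07, SE 0.49, adjusted p 1.5e-07). Of 29 epithelial junction genes tested, 16 were lower and 3 higher. Of all tested genes 13.2% were lower and 13.6% higher, and the count that was higher is near that share. CDH3, the P-cadherin of basal cells, fell from 35.1 ± 8.90 to 15.3 ± 6.04 CPM (adjusted p 0.00374, and 0.0747 when the 8 libraries were fitted alone), and the adhesion molecule EPCAM fell from 21.3 ± 7.50 to 9.98 ± 2.25 CPM. Desmosome genes fell in 7 of 9 cases. Among them were the plaque protein DSP (from 196 ± 33.4 to 107 ± 3.50 CPM), the cadherin DSG2 (from 222 ± 9.01 to 118 ± 12.4 CPM) and the plakophilin PKP2 (from 26.8 ± 8.90 to 11.3 ± 1.40 CPM). The desmosomal cadherin DSC3 went the opposite way, from 6.01, 7.59, 5.16 and 3.20 CPM to 11.65, 12.6, 14.1 and 10.6 CPM (log2 1.24, SE 0.17, adjusted p 1.6e-06), as did NECTIN4, an adherens junction protein (from 5.20 ± 0.583 to 24.6 ± 7.95 CPM).

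Regulators of the epithelial state fell in 12 of 16 cases and rose in none, with a median log2 change of -1.28. ESRP1 held 772 counts in the GFP libraries and 28 with hairpin B, a drop from 12.2, 8.41, 5.47 and 3.85 CPM to 0.237, 0.137, 0.138 and 0.0692 CPM. MAL2, a carrier of proteins to the apical surface, fell from 43.9 ± 17.4 to 0.982 ± 0.503 CPM, and the membrane serine protease PRSS8 fell from 6.08 ± 2.46 to 0.600 ± 0.242 CPM. KLF5, a zinc finger factor of epithelial progenitors, fell from 157 ± 14.4 to 55.7 ± 5.31 CPM, and the protease matriptase, ST14, fell from 79.1 ± 9.51 to 37.2 ± 1.24 CPM. Of 7 transcription factors known for driving epithelial to mesenchymal transition, 2 rose and 1, FOXC2, fell (none without hairpin B replicate 3 or GFP replicate 2). ZEB2 rose 1.47-fold (adjusted p 0.0146, and 0.0516 without hairpin B replicate 4) and TWIST2 rose 1.45-fold. ZEB1 was at 16.3 ± 1.57 and 17.9 ± 2.77 CPM (adjusted p 0.525) and SNAI2 at 40.2 ± 8.16 and 43.8 ± 9.43 CPM (adjusted p 0.733).

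The S100 calcium-binding proteins divided. Of 12 tested, 6 fell and 4 rose. S100A14 fell 18.7-fold, from 75, 60.7, 44 and 34.3 CPM to 3.08, 2.57, 2.82 and 2.49 CPM. S100A8 and S100A9, the subunits of calprotectin, fell from 117 ± 37.6 to 9.53 ± 5.58 CPM and from 217 ± 68.7 to 29.4 ± 17.3 CPM, and S100A2, abundant in basal cells, fell from 446 ± 113 to 109 ± 18.7 CPM. S100A4, known from motile and mesenchymal cells, rose from 15.4 ± 2.35 to 40.5 ± 4.62 CPM, and S100A3 rose from 11.3 ± 2.32 to 28 ± 2.23 CPM. Of the clade B serpins, intracellular protease inhibitors of squamous epithelium, 6 of 7 were lower. They are part of a squamous list whose other members, genes of terminal differentiation, went both ways: of 12 tested, 4 rose, or 2 without hairpin B replicate 2 or 3 or GFP replicate 4, and 3 fell, or 1 without GFP replicate 3, with a median log2 change of 0.48. CLCA2, a chloride channel regulator, rose from 2.17 to 7.40 CPM on average (adjusted p 8.4e-04), and the transglutaminase TGM1 fell from 4.38 to 2.38 CPM (adjusted p 0.0125). SERPINB2, an inhibitor of urokinase, fell from 10.4 ± 3.98 to 0.446 ± 0.304 CPM.

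Epithelial laminin chains fell while other parts of the anchorage to the basement membrane rose. LAMA3, an alpha chain, fell from 200.1 ± 55.9 to 39 ± 4.95 CPM (log2 -2.35, SE 0.18, adjusted p 4.0e-09), and LAMB3, a beta chain, fell from 2667, 2799, 3215 and 2086 CPM to 653, 641, 838 and 733 CPM, the second largest loss in CPM among called protein-coding genes. COL17A1, the collagen that crosses the membrane in hemidesmosomes, fell from 51.8, 30.9, 30.1 and 27.5 CPM to 2.56, 3.02, 4.16 and 1.27 CPM. The hemidesmosomal integrin subunits rose, ITGB4 from 84.9 ± 7.64 to 189 ± 30.5 CPM and ITGA6 from 77.1 ± 10.2 to 106 ± 6.06 CPM. COL7A1, which forms anchoring fibrils beneath the basement membrane, rose from 24.6 ± 3.65 to 75.4 ± 11.3 CPM, and HSPG2, the proteoglycan perlecan, rose from 85.9 ± 2.35 to 229 ± 51.2 CPM. In the whole list of 20 hemidesmosome and basement membrane genes, 11 rose and 5 fell. A further integrin subunit was among the 12 largest falls: ITGB6, part of a receptor that activates TGF-beta, was at 31.4, 21, 21.7 and 11 CPM and 0.791, 0.367, 0.490 and 0.539 CPM.

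The GFP libraries themselves differed along the genes that fell most. Summed over the 12 largest falls, the 4 GFP libraries held 446, 348, 265 and 182 CPM, whereas the hairpin B libraries held 9.12, 6.60, 5.73 and 5.12 CPM. Both groups thus ran downward from replicate 1 to replicate 4, as did the sums of the basal and stress keratins called lower. Replicate 1 was the highest GFP library in 9 of the 12 largest falls and replicate 4 the lowest in 10. Replicate 4 was also the lowest GFP library for 5 of the 7 basal and stress keratins and for 8 of the 12 epithelial regulators. The 12 largest falls were chosen because their groups did not overlap, so their sums could not overlap either. Within hairpin B, replicate 3 stood apart for other genes, being the lowest library for 36 of 37 DNA replication genes called lower and the highest for 17 of 21 p53 targets called higher. The shallow GFP replicate 1 was not the lowest GFP library in the falls, and the part of depth in these differences was not tested.

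**Figure D3:**
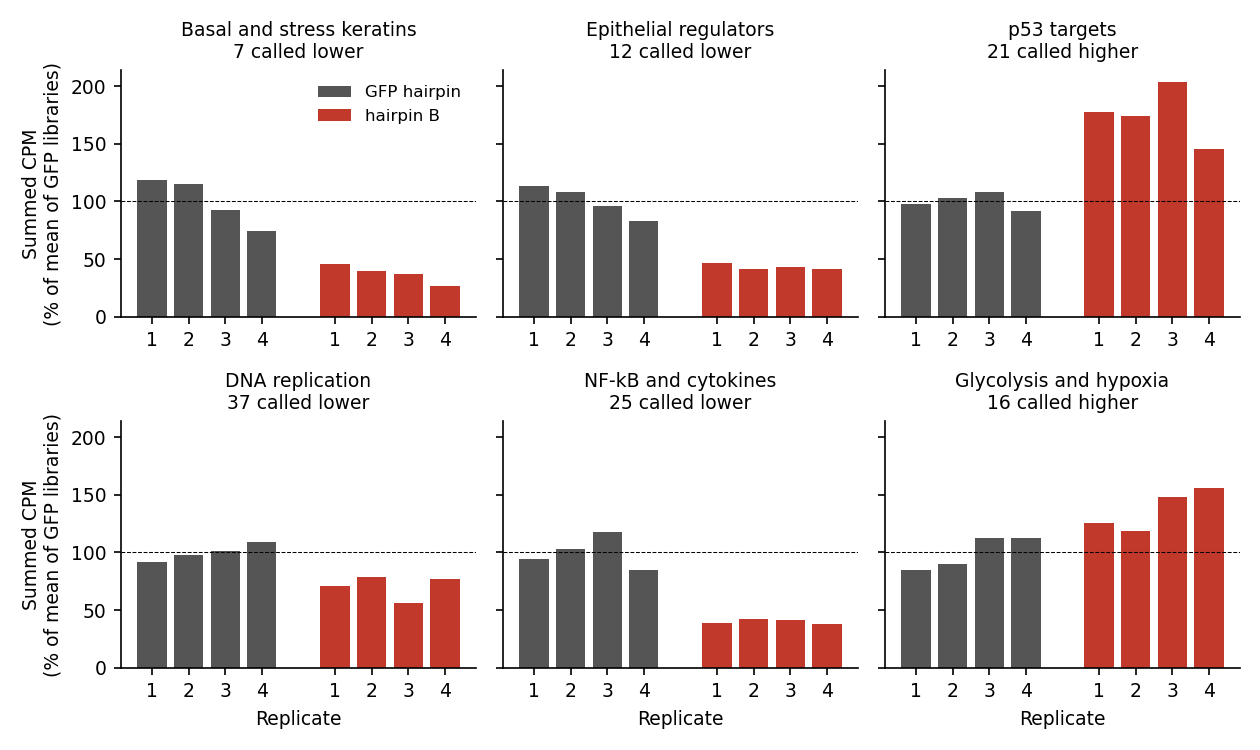
Summed CPM of called genes in 6 groups, drawn for each library as a percentage of the mean of the 4 GFP libraries (bars start at 0, dashed line at 100). The 7 keratins run from 118 to 74.5% in the GFP libraries and from 45.8 to 26.96% with hairpin B, and hairpin B replicate 3 is the highest bar for p53 targets (204%) and the lowest for DNA replication (56.2%).

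The largest rises by log2 change were in genes at low level in the GFP libraries, which ranking by ratio favours. The 12 were PLAC8, IP6K3, IFITM10, SHISA9, MYLK, PADI4, CRISPLD2, MMP2, CCN5, ADPRHL1, EEF1A2 and LAIR1, from 31.2-fold to 8.27-fold higher. The limit of 5 CPM could be met by either group mean, and all but MMP2 and ADPRHL1 met it through hairpin B alone. Their low GFP level is thus partly a product of the choice. PLAC8, a small cysteine-rich protein first known from placenta, stood at 0.445, 0.206, 0.625 and 0.296 CPM and at 12.1, 15.1, 16.8 and 8.33 CPM with hairpin B (log2 4.96, SE 0.30, adjusted p 2.0e-14). IP6K3, a kinase of inositol phosphates, rose from 0.668, 0.568, 1.52 and 0.651 CPM to 23, 18.1, 25.5 and 15 CPM. MYLK, the kinase that activates smooth muscle myosin, rose from 2.23, 2.12, 2.70 and 2.90 CPM to 32.5, 43.5, 45.1 and 46.4 CPM (log2 4.02, SE 0.25, adjusted p 2.1e-12). In each of these genes the lowest hairpin B library was several times the highest GFP library.

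The other rises included PADI4, which converts arginine to citrulline in histones (from 0.274 ± 0.183 to 5.43 ± 1.06 CPM), and CRISPLD2, a secreted lung and matrix protein (from 0.811 ± 0.618 to 13.5 ± 6.91 CPM). SHISA9, an AMPA receptor accessory protein, varied more, with 3.78, 0.671, 0.899 and 0.118 CPM against 11.65, 17.5, 14.8 and 9.90 CPM. EEF1A2, the elongation factor form usual in muscle and neurons, rose from 0.634 ± 0.395 to 6.65 ± 2.47 CPM, and ADPRHL1, a heart-enriched relative of ADP-ribosylhydrolases, rose from 6.38 ± 2.73 to 69.1 ± 19.6 CPM. LAIR1 (adjusted p 0.0168), CCN5 (adjusted p 0.00965) and IFITM10 (adjusted p 2.8e-04) each had at least 1 GFP library at 0.

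Mesenchymal and matrix genes rose in 14 of 32 cases and fell in 5, or 3 without hairpin B replicate 2. Of all tested genes 13.6% rose and 13.2% fell, and the count that fell is near that share. VIM, the intermediate filament of mesenchymal cells, rose from 871 ± 100 to 1223 ± 87.5 CPM, and CDH2, N-cadherin, rose from 47.4 ± 3.09 to 64.3 ± 5.61 CPM. FBN1, the microfibril protein fibrillin, rose from 17.6, 22.6, 29.3 and 25.2 CPM to 73.9, 79.6, 90.9 and 92.1 CPM, 3.44-fold (log2 1.78, SE 0.12, adjusted p 1.2e-13). LOXL2, an enzyme that cross-links collagen, rose from 160 ± 76.1 to 490.5 ± 146 CPM and COL12A1, a fibril-associated collagen, rose from 87.5 ± 11.5 to 229 ± 15.2 CPM. Matrix collagen genes as a group were higher in 8 of 15 cases, or in 5 without hairpin B replicate 4 or GFP replicate 2.

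Other mesenchymal genes fell. CDH11, a cadherin of mesenchymal cells, went from 14.2, 12.3, 8.33 and 4.34 CPM to 0.211, 0.458, 0.439 and 0.194 CPM, the matrix glycoprotein TNC fell from 54.8 ± 8.41 to 29.4 ± 2.57 CPM, and the proteoglycan DCN fell from 51.6 ± 5.26 to 20 ± 5.96 CPM (adjusted p 0.0179, and 0.0549 without hairpin B replicate 2). Fibronectin, FN1, was at 486 ± 119.8 and 634 ± 184 CPM (adjusted p 0.313). The mesenchymal genes named here thus went both ways, but more of the list rose than fell. DCN is also one of the fibroblast markers whose sum was lower with hairpin B.

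MMP2, gelatinase A, had one of the largest rises, from 2.89, 7.74, 11.5 and 14.4 CPM to 102, 87.8, 133 and 151 CPM (log2 3.51, SE 0.38, adjusted p 8.7e-07). Its inhibitors parted: TIMP2 rose from 138 ± 20.8 to 287 ± 29.7 CPM and TIMP1 fell from 2413 ± 284 to 1376 ± 93.3 CPM, among the 6 largest losses in CPM of called protein-coding genes. The plasminogen activator PLAT rose from 10.4 ± 1.22 to 29.5 ± 7.34 CPM. Over 21 matrix proteolysis genes, 6 rose and 6 fell.

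In the activin, TGF-beta and BMP pathway 12 of 32 genes rose and 7 fell. The ligand BMP2 fell from 18, 18.3, 15.3 and 9.59 CPM to 2.19, 0.916, 1.90 and 2.86 CPM (log2 -2.90, SE 0.29, adjusted p 3.1e-09), and the activin receptor ACVR2B fell from 13.6 ± 2.22 to 5.24 ± 0.919 CPM. TGFB2 rose from 13.8 ± 3.41 to 30.5 ± 5.92 CPM, and LTBP1, which stores latent TGF-beta in matrix, rose from 131 ± 23.6 to 252 ± 41.4 CPM. TGFBI, a secreted protein named for its induction by TGF-beta, had the largest gain in CPM of any called protein-coding gene, from 3141 ± 656 to 4848 ± 848 CPM, with overlapping groups (adjusted p 0.0151, and 0.0510 without GFP replicate 2). Of 20 YAP and TEAD target genes 11 rose, or 7 without GFP replicate 2, and 4 fell. ANKRD1, a target with 14 counts in all GFP libraries, had 680 counts with hairpin B, a 32.2-fold higher pooled level. The receptor AXL rose from 90 ± 12.6 to 158 ± 12.2 CPM and FJX1 fell from 78.8 ± 13.4 to 43.5 ± 7.40 CPM, while CCN1, a classical target, was at 149 ± 34.9 and 162 ± 45 CPM (adjusted p 0.847).

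Secreted Wnt antagonists went opposite ways. DKK1 rose from 45.4, 49.1, 79.1 and 71.6 CPM to 142, 157, 250.4 and 206 CPM, whereas SFRP1 fell from 88.1, 82.6, 73 and 54.8 CPM to 14.4, 16.4, 11.3 and 13 CPM (log2 -2.43, SE 0.17, adjusted p 2.7e-10). RNF43, a ligase that removes Wnt receptors, fell from 5.91 ± 1.87 to 1.58 ± 0.492 CPM, and the receptor NOTCH1 rose from 54.8 ± 8.54 to 94.4 ± 4.44 CPM. Of 26 Notch and Wnt genes tested, 4 rose, near the 13.6% of all tested genes. Another 8 fell, against 13.2% of all tested genes, or 5 without GFP replicate 2.

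Inflammatory signals made by the cells under NF-kB, a transcription factor family of the response to cytokines and damage, were lower with hairpin B. Of 37 genes 25 fell and 1 rose, with a median log2 change of -0.94 against 0.01 over all genes. To show what such promoters look like, the stretch from 250 bases before to 50 bases after the start of 2 chemokine genes that fell, CXCL5 and CXCL3, is given from RefSeq (GRCh38.p14, minus strand, 5′ to 3′), with a match to the NF-kB core GGANTTTCC in capitals. They lie at chr4:73998628-73998927 and chr4:74038640-74038939, and the matches begin 90 and 78 bases before the start.
CXCL5: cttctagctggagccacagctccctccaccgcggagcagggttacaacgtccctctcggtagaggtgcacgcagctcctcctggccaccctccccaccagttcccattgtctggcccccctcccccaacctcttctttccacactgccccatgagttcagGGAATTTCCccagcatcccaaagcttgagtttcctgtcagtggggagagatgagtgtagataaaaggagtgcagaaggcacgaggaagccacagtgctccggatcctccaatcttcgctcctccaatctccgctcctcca
CXCL3: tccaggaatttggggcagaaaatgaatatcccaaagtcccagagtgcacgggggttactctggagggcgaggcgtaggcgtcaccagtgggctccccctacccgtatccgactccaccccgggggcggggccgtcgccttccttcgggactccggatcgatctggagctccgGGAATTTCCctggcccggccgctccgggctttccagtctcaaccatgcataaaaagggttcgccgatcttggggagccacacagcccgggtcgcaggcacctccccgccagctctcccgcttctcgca
The core, searched on both strands, was present in 13 of 28 promoters matched to the list by symbol (46.4%) and in 449 of 27305 promoters of the same length (1.64%). Of 22 genes called lower that had a promoter sequence, 12 held it. A match describes letters only.

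CXCL3, a chemokine that attracts neutrophils, was at 223, 253, 246 and 168 CPM with the GFP hairpin and 28.5, 35.6, 22.6 and 25.4 CPM with hairpin B (log2 -3.00, SE 0.32, adjusted p 5.7e-07). CXCL8, interleukin 8, fell from 539, 550.4, 686 and 427 CPM to 90.7, 114, 106 and 125 CPM, and CXCL1 fell from 1141 ± 191 to 379 ± 31.6 CPM. In all 3 the groups did not overlap. CXCL5 was near the limit of detection at 1.13 ± 0.496 and 0.115 ± 0.123 CPM, and its call (adjusted p 0.0308) was lost without hairpin B replicate 1 (0.0748), 2 (0.0683) or 4 (0.0734) or GFP replicate 3 (0.106).

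Among cytokines, the alarmin IL1A fell from 278 ± 54.8 to 65.4 ± 12 CPM and IL6 fell from 183, 220.1, 156 and 106 CPM to 44, 53.1, 21.3 and 17.9 CPM. IL1RN, the receptor antagonist of interleukin 1, had 240 counts in the GFP libraries and none with hairpin B, at least 120.8-fold lower against 3 counts over the group (adjusted p 3.5e-07). The chemokine CCL20 fell from 509 ± 75.8 to 192 ± 9.64 CPM, and SOD2, the mitochondrial superoxide dismutase induced by NF-kB, fell from 1871 ± 206 to 956 ± 232 CPM. CXCL16 was the exception that rose (from 6.96 ± 0.988 to 10.1 ± 1.69 CPM, with overlapping groups).

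Feedback genes followed in the same direction, with NFKBIA, the inhibitor of NF-kB, from 282 ± 23.6 to 175 ± 2.93 CPM, TNFAIP3 from 167 ± 23.2 to 99.6 ± 12.2 CPM and the subunit gene NFKB2 from 141 ± 13.9 to 85.2 ± 6.77 CPM. The subunit RELA was at 73.1 ± 6.83 and 73.8 ± 5.86 CPM (adjusted p 0.923). The 25 genes that fell summed to 4983, 5425, 6191 and 4469 CPM in the GFP libraries and to 2038, 2223, 2166 and 2007 CPM with hairpin B. Of 14 immune cell markers, 8 were at 0 in all GFP libraries and 6 in all hairpin B libraries. Only 4 of the 14 were tested, and none of the 4 was called.

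Interferon-induced genes moved the other way. Of 32 tested, 13 rose, with a median log2 change of 0.36, and 1 fell, the kinase gene EIF2AK2, whose call was lost without GFP replicate 2 or 3 or hairpin B replicate 1, 2 or 3. ISG15, a ubiquitin-like modifier, rose from 2.45, 4.44, 5.54 and 4.87 CPM to 9.51, 9.67, 11.1 and 7.90 CPM, and BST2, tetherin, rose from 113 ± 12.8 to 195 ± 18.6 CPM. IFIT1, which binds foreign RNA ends, rose from 1.39 ± 0.169 to 3.59 ± 0.432 CPM, and TLR3, a sensor of double-stranded RNA, rose from 10.5 ± 1.49 to 22.3 ± 2.37 CPM. Of 23 antigen presentation genes 4 rose (from 1 to 2 when hairpin B replicate 1 or 3 or GFP replicate 1 or 2 was left out) and 5 fell. Of all tested genes 13.6% rose and 13.2% fell. HLA-F fell from 84.3 ± 9.57 to 41.8 ± 10.1 CPM and CIITA, the master regulator of class II genes, fell from 10.1 ± 2.57 to 4.86 ± 0.604 CPM.

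Immediate-early genes, which respond within minutes to growth factors such as the epidermal growth factor in the medium, fell in 15 of 33 cases and rose in 2 (1 without hairpin B replicate 3 or 4 or GFP replicate 3). EGR1 was at 234, 287, 133 and 202 CPM with the GFP hairpin and 92.8, 101, 36.8 and 61.4 CPM with hairpin B (log2 -1.56, SE 0.34, adjusted p 0.00183), lowest in replicate 3 of both groups. DUSP6, a phosphatase that shuts off ERK, fell from 124 ± 13.4 to 44.9 ± 10.4 CPM, IER2 fell from 85.7 ± 12.9 to 39.2 ± 4.40 CPM and JUNB fell from 116 ± 19.2 to 60.3 ± 2.61 CPM. FOS, at 156, 215, 59.2 and 159 and 137, 115, 22.5 and 84.6 CPM, overlapped (adjusted p 0.444), and DUSP1 was at 773 ± 50.9 and 758 ± 64.5 CPM (adjusted p 0.881). PHLDA1 rose from 136 ± 6.61 to 220.1 ± 30.7 CPM.

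Of the EGF family, the ligand HBEGF fell from 14 ± 2.22 to 6.01 ± 1.42 CPM and the ligand NRG1 rose from 0.523 ± 0.147 to 3.79 ± 1.44 CPM, still a low level. The receptor ERBB3 fell from 2.65 ± 1.82 to 0.510 ± 0.212 CPM, and EGFR itself was at 154 ± 11.8 and 154 ± 20.8 CPM (adjusted p 0.947).

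Targets of the tumour suppressor p53 rose in 21 of 31 cases and fell in 3, with a median log2 change of 0.51. CDKN1A, the p21 inhibitor of cyclin-dependent kinases, was at 159.8, 179.8, 197 and 161 CPM with the GFP hairpin and 489, 460.3, 554 and 345 CPM with hairpin B (log2 1.40, SE 0.16, adjusted p 1.4e-06). GDF15, a secreted stress hormone, rose from 8.01, 16.7, 12.9 and 8.94 CPM to 86, 79.2, 104 and 58.7 CPM, 6.81-fold. TP53INP1, a p53-induced stress protein, rose from 8.68, 4.75, 6.15 and 4.99 CPM to 28.5, 25.4, 37.6 and 20 CPM. In these genes replicate 3 was the highest hairpin B library and replicate 4 the lowest, and all 4 were above every GFP library.

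Of the further targets, CYFIP2, a regulator of actin, rose from 14.9 ± 2.15 to 53.7 ± 12.3 CPM, FDXR, the ferredoxin reductase of mitochondria, rose from 25.2 ± 5.29 to 62.7 ± 16 CPM, and TRIAP1, a small apoptosis inhibitor, rose from 17.9 ± 0.969 to 41.5 ± 2.57 CPM. Of 10 death-related targets 4 rose, or 2 without hairpin B replicate 3 or GFP replicate 4. PMAIP1, the BH3 protein NOXA, fell from 14.7 ± 3.50 to 10.1 ± 2.25 CPM with overlapping groups. MDM2, the ligase that degrades p53 and a target in its own right, was at 119.7, 119, 121 and 99.8 CPM and 122, 118, 113 and 96.4 CPM, with overlap between groups (adjusted p 0.899).

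Outside the p53 list, BCL2L1, which blocks apoptosis, rose from 75.4 ± 7.97 to 121 ± 4.62 CPM and BAK1, which carries it out, fell from 52.3 ± 2.56 to 34.1 ± 2.42 CPM. In the BCL2 family as a whole, 2 of 15 tested genes rose and 6 fell, against 13.6% and 13.2% of all tested genes. Of its 4 anti-apoptotic members 1 rose and 2 fell. Of 14 cell cycle genes (cyclins D and E with their kinases, CDC25A, E2F factors and retinoblastoma proteins), 6 fell, 1 rose and 7 did not pass the test. Cyclin D1, CCND1, fell from 262 ± 13.4 to 178 ± 22.6 CPM, its kinase CDK6 fell from 42.5 ± 4.87 to 25.6 ± 3.02 CPM, and the transcription factor E2F2 fell from 18.2 ± 5.44 to 11 ± 2.03 CPM with overlapping groups. Another G1 cyclin, CCND3, was the one that rose, from 130.1 ± 11.9 to 162 ± 6.82 CPM (adjusted p 6.0e-04).

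DNA replication genes fell in 37 of 45 cases and rose in 2, with a median log2 change of -0.46. Such genes are commonly controlled by E2F factors. The promoters of UHRF1 (chr19:4909251-4909550) and GINS3 (chr16:58392221-58392520), the genes with the largest falls among those holding one, show a match to an E2F site, given on the plus strand 5′ to 3′ from RefSeq (GRCh38.p14), with the match in capitals 14 and 5 bases before the start.
UHRF1: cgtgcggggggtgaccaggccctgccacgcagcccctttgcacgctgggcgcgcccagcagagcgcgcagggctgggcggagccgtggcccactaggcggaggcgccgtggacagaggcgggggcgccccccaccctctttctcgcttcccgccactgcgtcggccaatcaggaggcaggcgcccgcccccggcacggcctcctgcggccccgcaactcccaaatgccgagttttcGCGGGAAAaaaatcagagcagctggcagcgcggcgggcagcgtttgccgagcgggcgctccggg
GINS3: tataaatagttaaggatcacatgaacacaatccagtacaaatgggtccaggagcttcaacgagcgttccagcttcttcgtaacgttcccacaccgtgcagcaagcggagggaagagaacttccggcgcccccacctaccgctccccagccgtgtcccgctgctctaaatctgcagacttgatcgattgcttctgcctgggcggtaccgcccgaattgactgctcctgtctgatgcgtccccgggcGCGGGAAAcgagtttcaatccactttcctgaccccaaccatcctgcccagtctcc
The letters searched on both strands were TTTGGCGC, TTTCCCGC, TTTCGCGC and TTTGCCGC. At least 1 was found in 19 of 38 replication promoters (50%) and in 908 of 27305 promoters (3.33%). It was found in 15 of 31 replication genes called lower that had a promoter sequence, about the same share as in the list. As above, a match describes letters only.

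UHRF1, which recognises hemimethylated DNA at the fork, was at 107, 121, 129 and 138 CPM with the GFP hairpin and 49.4, 62.5, 38.6 and 59.7 CPM with hairpin B (log2 -1.25, SE 0.11, adjusted p 9.0e-10). PRIM1, the primase subunit that starts each new strand, fell from 27.8, 25, 27.6 and 27.8 CPM to 11.7, 12.9, 7.18 and 11.62 CPM. GINS3, a part of the replicative helicase, fell from 19.4, 21.1, 21.4 and 20 CPM to 12.7, 11.2, 8.07 and 12.4 CPM. In all 3 genes hairpin B replicate 3 was lowest, and the groups did not overlap.

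GMNN, geminin, which prevents a second round of licensing, fell from 57.7 ± 1.30 to 31.8 ± 4.23 CPM, and MCM6, a helicase subunit, fell from 150.3 ± 9.69 to 99.7 ± 14.6 CPM. The 2 that rose were PCNA, the sliding clamp, from 61.7 ± 3.75 to 88.9 ± 10.1 CPM, and TOPBP1, an activator of the checkpoint kinase ATR, from 47.4 ± 3.28 to 63.6 ± 4.67 CPM. Hairpin B replicate 3 was the lowest library for 36 of the 37 genes that fell. Their summed levels were 2636, 2807, 2902 and 3123 CPM in the GFP libraries and 2042, 2264, 1612 and 2217 CPM with hairpin B.

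Fanconi pathway and homologous recombination genes, which repair crosslinks and breaks at forks, fell in 24 of 34 cases and rose in none. XRCC2, a recombination factor, fell from 34 ± 3.40 to 17.6 ± 2.84 CPM, BRCA2, which acts in the search for a matching strand, fell from 27 ± 3.24 to 14.5 ± 2.70 CPM, and FANCA, of the Fanconi core complex, fell from 61.1 ± 6.38 to 37.2 ± 3.97 CPM. Within the Fanconi genes alone 9 of 12 fell, or 4 without hairpin B replicate 3. Mitotic genes fell in 23 of 41 cases, or in 15 without that library, and rose in 5, the latter near the 13.6% of all tested genes. Cyclin A2, CCNA2, fell from 133 ± 8.03 to 76.7 ± 9.03 CPM, the spindle factor TPX2 fell from 263 ± 14.5 to 154 ± 17.3 CPM and separase, ESPL1, fell from 65.9 ± 7.52 to 36.9 ± 5.50 CPM. NUF2, a kinetochore protein, rose from 27.2 ± 3.66 to 45.1 ± 5.34 CPM and CDC20, an activator of the anaphase-promoting complex, rose from 185 ± 36.9 to 246 ± 31.3 CPM. TUBB, a beta-tubulin, had the largest loss in CPM of all called protein-coding genes, from 8668, 9251, 9648 and 9425 CPM to 6694, 6737, 5369 and 6612 CPM, a 1.46-fold change. In nucleotide synthesis, 11 of 28 genes fell and 3 rose, against 13.2% and 13.6% of all tested genes. PPAT, the first enzyme committed to purines, fell from 59.4 ± 3.65 to 28.5 ± 3.88 CPM, and RRM2, the ribonucleotide reductase subunit made in S phase, fell from 412 ± 30.6 to 266 ± 44.6 CPM.

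**Figure D4:**
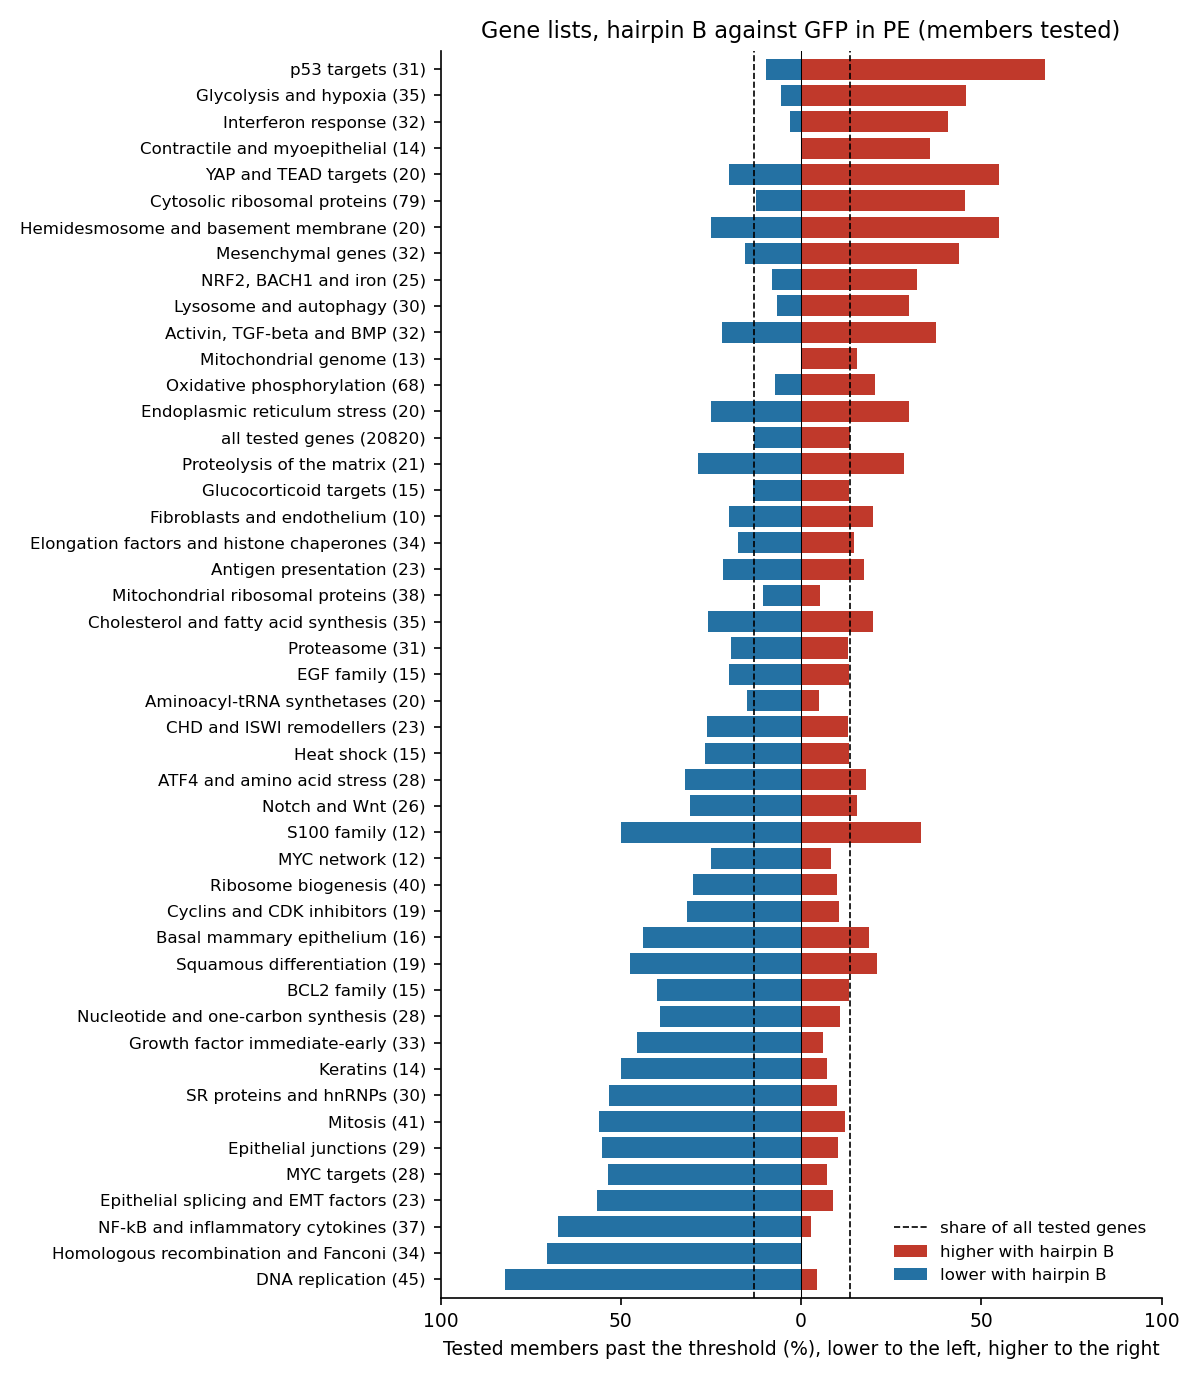
For each gene list (number of tested members in brackets) the bars give the percentage of members past the threshold, lower with hairpin B to the left in blue and higher to the right in red, with dashed lines at the shares of all 20820 tested genes. DNA replication (37 of 45 lower) and p53 targets (21 of 31 higher) are at opposite ends.

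Glucose metabolism and hypoxia genes rose in 16 of 35 cases. The count was 10 without hairpin B replicate 3, GFP replicate 1 or GFP replicate 2. SLC2A1, the glucose transporter GLUT1, rose from 62.5, 63.9, 95.3 and 91.9 CPM to 129, 129, 177 and 178 CPM (log2 0.95, SE 0.19, adjusted p 8.3e-04), GAPDH rose from 4175 ± 562 to 5513 ± 753 CPM with overlapping groups, VEGFA, the angiogenic factor, rose from 171 ± 19.1 to 308 ± 43.8 CPM and the collagen hydroxylase P4HA1 rose from 94.8 ± 16.3 to 158 ± 36.5 CPM. CA9, a carbonic anhydrase often used as a hypoxia marker, was at 14.5, 8.31, 48.6 and 72.8 and 67.5, 46.2, 121 and 204 CPM with overlap (adjusted p 0.174). Replicates 3 and 4 were the higher libraries in both groups for this set: the GFP sums were 8516, 9086, 11335 and 11273 CPM and the hairpin B sums 12616, 11908, 14855 and 15639 CPM.

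Genes of heme, iron and redox balance under NRF2 and BACH1 rose in 8 of 25 cases. HMOX1, heme oxygenase, rose from 5.34, 4.44, 4.31 and 4.91 CPM to 30.4, 32.9, 21 and 41.8 CPM, 6.79-fold (log2 2.76, SE 0.30, adjusted p 5.6e-07). FTL, the ferritin light chain, rose from 1671 ± 241 to 2818 ± 304 CPM, and the quinone reductase NQO1 rose from 560.4 ± 62.5 to 778 ± 69.2 CPM. MT1X, a metallothionein that holds zinc, fell from 249 ± 29.7 to 79 ± 17.9 CPM.

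Cholesterol and fatty acid synthesis genes were divided, 7 higher and 9 lower of 35. IDI1, the isomerase of isoprenoid units, fell from 79.2, 87.1, 90.3 and 80.3 CPM to 36.4, 35.5, 30.4 and 33.8 CPM, and HMGCS1, near the start of the pathway, fell from 116 ± 15.4 to 70.8 ± 4.97 CPM. INSIG1, which retains the sterol regulator SCAP in the endoplasmic reticulum, rose from 34.5 ± 4.26 to 85.5 ± 11.1 CPM. The lysosomal proteases cathepsin D and B rose, CTSD from 221 ± 22.1 to 632 ± 149 CPM and CTSB from 408 ± 60.6 to 619.8 ± 94.7 CPM.

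Although MYC RNA differed by less than the spread between libraries, 15 of 28 classical MYC target genes fell and 2 rose. ODC1, the enzyme that starts polyamine synthesis, fell from 616, 665, 549 and 505 CPM to 273, 301, 213 and 262 CPM (log2 -1.15, SE 0.13, adjusted p 3.5e-07), and the nucleolar protein NOLC1 fell from 310.1 ± 19.6 to 202 ± 22.8 CPM. Ribosome biogenesis genes fell in 12 of 40 cases, or in 7 without hairpin B replicate 3, and rose in 4, or in 2 without hairpin B replicate 2 or 4 or GFP replicate 3. Their median log2 change was -0.03, and of all tested genes 13.2% fell and 13.6% rose.

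Ribosomal protein genes instead leaned upward, with 36 of 79 higher and 10 lower. RPS18 rose from 3409 ± 364 to 4572 ± 271 CPM, among the largest gains in CPM of called protein-coding genes, and RPL36 rose from 215 ± 32.1 to 315 ± 4.22 CPM, while RPL10 fell from 714 ± 27.6 to 386 ± 25.7 CPM. Splicing factors of the SR and hnRNP families fell in 16 of 30 cases and rose in 3 (1 without hairpin B replicate 1 or GFP replicate 3). Neighbouring paralogues parted here: HNRNPD rose from 263 ± 17 to 416 ± 31.4 CPM and HNRNPDL fell from 279 ± 30.6 to 189 ± 23.3 CPM. Of 13 transcripts of the mitochondrial genome 2 rose (15.4%, near the 13.6% of all genes) and 11 did not pass the test. The 2 had overlapping groups, ND1 from 2397 ± 412 to 3309.8 ± 419 CPM and COX3 from 3318 ± 613 to 4408 ± 473 CPM.

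Among long non-coding RNAs the largest change was in MIR205HG, the host transcript of the epithelial microRNA miR-205. It was at 28.9, 22.9, 17.4 and 11.3 CPM in the GFP libraries and 0, 0.137, 0.0126 and 0.0138 CPM with hairpin B, or 2286 counts against 5, a 690-fold lower pooled level (log2 -9.52, SE 0.54, adjusted p 2.2e-14). LOC107987300, HMGA2-AS1 and LOC102725231 followed, 6.74-fold, 5.50-fold and 3.48-fold lower. As the strand setting of the counting is not given in the sources used here, reads of an antisense gene such as HMGA2-AS1 and of its partner cannot be told apart. The largest rises were LINC03033 (from 2.85 ± 1.81 to 15.9 ± 2.07 CPM), LOC105377622 (from 1.29 ± 0.610 to 5.42 ± 0.840 CPM), LINC02320 (from 2.06 ± 0.529 to 8.69 ± 2.41 CPM) and CH507-42P11.6 (from 1.82 ± 0.509 to 6.50 ± 2.29 CPM).

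Hairpin B was set directly against hairpin A, a second hairpin to the same gene in the same line, to test where the hairpins differed. CHD1 was at 29.2 ± 1.20 CPM with hairpin A and 28.1 ± 3.07 CPM with hairpin B (log2 -0.06, SE 0.10, adjusted p 0.769). The hairpins nonetheless differed in 3451 genes (16.6% of 20820), 1558 higher and 1893 lower with hairpin B, and by at least 2-fold in 424 and 236. KRT14 was at 19.3, 16.4, 19.6 and 13.9 CPM with hairpin A, between the GFP libraries (25 to 55.8 CPM) and hairpin B (0.360 to 0.641 CPM), and differed between hairpins by log2 -5.06, SE 0.53, adjusted p 1.1e-06. The same intermediate place of hairpin A held for the means of MAL2 (13.1 ± 4.04 CPM), KRT16 (10.1 ± 2.54 CPM), ITGB6 (7.19 ± 1.67 CPM), TC2N (7.26 ± 3.52 CPM) and S100A8 (73 ± 31.5 CPM), the next 5 largest falls of B against A among protein-coding genes that reached 5 CPM on average with either hairpin and had no overlap between them. Below that level or outside that class lay larger differences, such as those of CDH11 (log2 -3.74, SE 0.49, adjusted p 9.2e-07) and the non-coding MIR205HG (log2 -7.98, SE 0.54, adjusted p 2.4e-12). Lower with hairpin B than with hairpin A were 7 of 8 basal and stress keratins, against 1893 of all 20820 tested genes. The counts of 7 of 37 NF-kB genes and 7 of 45 replication genes were much closer to the share of all genes.

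**Figure D5:**
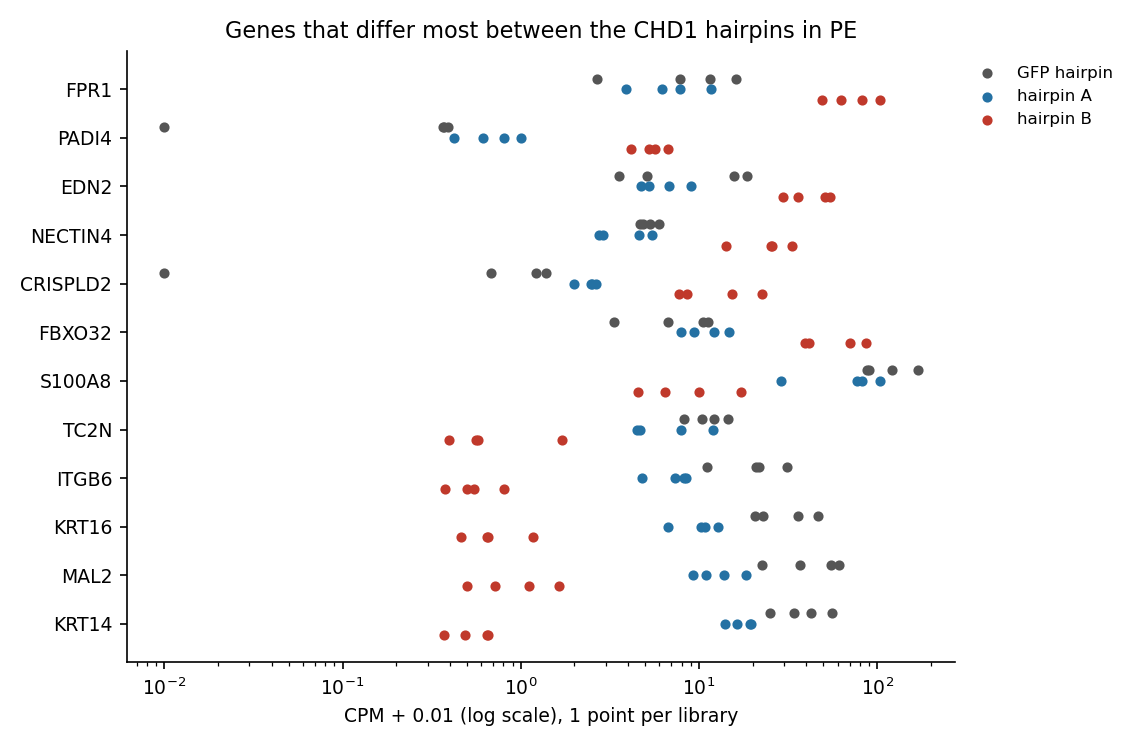
CPM + 0.01 (log axis) in each PE library with the GFP hairpin (grey), hairpin A (blue) and hairpin B (red) for the 6 largest differences between hairpins in each direction among protein-coding genes that reached 5 CPM on average with either hairpin and had no overlap between them. For KRT14 the hairpin B points lie below 1 CPM, the hairpin A points at 13.9 to 19.6 CPM and the GFP points above both. For FPR1 and EDN2 the hairpin A points lie among the GFP points.

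Genes higher with hairpin B than with hairpin A included several that hairpin A left near the GFP level. FPR1, the formyl peptide receptor of phagocytes, was at 2.67 to 16.2 CPM with the GFP hairpin, 3.89 to 11.61 CPM with hairpin A and 49.1 to 104 CPM with hairpin B (log2 3.33, SE 0.41, adjusted p 9.1e-06). EDN2, the vasoconstrictor endothelin-2, was at 3.56 to 18.7, 4.75 to 9.02 and 29.5 to 54.1 CPM in the same order, and NECTIN4 at 4.67 to 5.97, 2.74 to 5.44 and 14.1 to 33.4 CPM. FBXO32, a muscle atrophy ubiquitin ligase, was at 3.34 to 11.3, 7.93 to 14.6 and 39.2 to 86.7 CPM, and PADI4 and CRISPLD2 completed the 6 largest by the same conditions. Of all 20820 tested genes, 1558 were higher and 1893 lower with hairpin B than with hairpin A. Of 31 p53 targets, 24 were higher and 1 was lower, with GDF15 among the 24 (17 ± 3.01 CPM with A, log2 2.27, SE 0.28, adjusted p 1.1e-05). Cholesterol and fatty acid synthesis genes were lower with B than with A in 19 of 35 cases and higher in 2, with IDI1 at 88.7 ± 10.5 CPM with hairpin A (log2 -1.39, SE 0.08, adjusted p 1.5e-14), and splicing factors were lower in 18 of 30.

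The effect of hairpin B in PE was also set against its effect in PM by the difference of the 2 contrasts, to test where the lines differed. The effects differed in 510 genes (2.45% of 20820), more positive in PM for 306 and less so for 204. ESRP1, which lost nearly all of its RNA in PE, was at 17.4 ± 0.617 CPM with the GFP hairpin and 15.1 ± 0.798 CPM with hairpin B in PM (log2 5.42, SE 0.42, adjusted p 9.6e-10 for the difference between lines). CDH1 likewise was at 26 ± 1.71 and 26.8 ± 3.00 CPM in PM (log2 5.11, SE 0.59, adjusted p 2.4e-05), LAD1, a basement membrane filament protein that fell 43.5-fold in PE, at 50.2 ± 6.25 and 34.3 ± 2.37 CPM (log2 4.89, SE 0.48, adjusted p 1.2e-06), and KRT16 at 8.95 ± 4.84 and 5.64 ± 4.76 CPM (log2 4.80, SE 0.90, adjusted p 0.00438). Rises that were larger in PE were those of EEF1A2 (log2 -3.12, SE 0.62, adjusted p 0.00333), IP6K3 (log2 -3.00, SE 0.44, adjusted p 1.1e-04), PLAC8 (log2 -2.88, SE 0.38, adjusted p 4.4e-06) and NRG1 (log2 -1.99, SE 0.46, adjusted p 0.00979, with an adjusted p of 0.0808 by limma-voom). CHD1 fell in both lines, and its difference between them was log2 -0.13, SE 0.14, adjusted p 0.807.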

How the data were processed

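RNA was measured in 24 libraries of MCF10A, of which 8 form the comparison above and 12 more served the comparisons with hairpin A and with PM. The authors deposited whole-number read counts per gene, not normalized. Per the submitters' processing notes, reads were checked with FastQC, trimmed with Trim Galore 0.4.0, aligned to GRCh38 with HISAT2 2.2.1 and counted with featureCounts. The sources used here do not give the annotation release, the strand setting or how multi-mapped reads were counted. Groups came from the labels. Of 59251 genes 17236 had no count, and filterByExpr left 20820. The robust quasi-likelihood model of edgeR 4.0.16 (R 4.3.3) took 6 group means over 24 libraries, scaled by TMM, with 18 residual degrees of freedom. Tests were two-sided and adjusted by Benjamini-Hochberg over 20820 genes, with a threshold of 0.05. Standard errors are approximate, from the log2 change and the root of its F statistic. Deeper libraries give more precise values, and GFP replicate 1 was the shallowest. Scripts were tested on simulated counts.

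Named were CHD1 and MYC, the 12 largest rises and falls among protein-coding genes of at least 5 CPM whose groups did not overlap, the 6 largest gains and losses in CPM, 4 non-coding RNAs each way, up to 4 called members each way of each list, the 6 largest differences each way between hairpins under the same conditions and 4 each way between lines. Other list members were chosen after their values were seen, and 1 list entry, SPT2, was corrected to the symbol SPTY2D1. The comparison and the 48 gene lists were chosen with earlier results of these data known. Alternatives were other scalings, filters and tests (DESeq2 1.42.0, limma 3.58.1 voom), a replicate block, the compared groups alone and leaving out each library. Some genes that this rule names are not reported here. Libraries were not paired by replicate number. Promoters came from RefSeq (GRCh38.p14), to which 57842 gene names matched by current and 367 by older symbol.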

Additional observations from a re-analysis of the deposited data

Results flagged for a closer look

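Within a group of 4 libraries, 23 of 380 groups examined (190 genes, 2 groups each) had 1 library whose gap to its nearest neighbour took more of the group's range than Dixon's critical value allows. Chance sets apart about 1 in 20 groups. GFP replicate 1, the shallowest library, was the one apart as the lowest for MYC (249 CPM), CHD7 (23.8 CPM), TCEA2 (5.12 CPM), FTL (1310 CPM) and PADI4 (0 CPM), and as the highest for KLF5 (178 CPM) and COL17A1 (51.8 CPM). Its part in these values was not tested. Other GFP libraries stood apart in IP6K3 (replicate 3, 1.52 CPM, highest), TNFAIP3 (replicate 3, 201 CPM, highest), PRIM1 (replicate 2, 25 CPM, lowest), MDM2 (replicate 4, 99.8 CPM, lowest) and HNRNPDL (replicate 4, 325 CPM, highest).

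With hairpin B, replicate 1 was highest for SERPINB4 (0.58 CPM), HMGA2-AS1 (2.08 CPM), TC2N (1.69 CPM) and S100A9 (55 CPM), and replicate 2 for MIR205HG (0.137 CPM), LAD1 (0.321 CPM) and CCN1 (229 CPM). Replicate 3 was lowest for TUBB (5370 CPM) and highest for CYFIP2 (72.1 CPM) and CH507-42P11.6 (9.93 CPM). Replicate 4 was highest for TIMP1 (1520 CPM).

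The effect of hairpin B differed between PM and PE in 510 genes by the test of the difference. The log2 difference, PM minus PE, was 5.42 for ESRP1, 5.11 for CDH1, 4.89 for LAD1 and 4.80 for KRT16, and it was -3.12 for EEF1A2, -3.00 for IP6K3, -2.88 for PLAC8 and -1.99 for NRG1.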

How the results depend on the processing

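Over 8 other settings of scaling, filter, test and samples, the count of 5587 genes ranged from 5064 (the 8 libraries fitted alone) to 6293 (replicate block), and leaving out 1 library gave 4726 (without hairpin B replicate 3) to 5354 (without GFP replicate 1). Of the 5587 calls, 4605 were kept without hairpin B replicate 3. With library sizes alone 47.0% of calls were higher, against 50.8%. The count of at least 2-fold changes fell from 1292 to 645 when genes needed 5 CPM in 4 libraries, as fewer low genes were tested. Genes whose effect differed between lines rose from 510 to 829 with no filter on low counts and to 1003 with the replicate block, for which the cause was not tested, and ran from 419 to 615 with 1 library left out. Hairpin B against A ran from 2561 to 3298 with 1 library left out. The CHD1 log2 change stayed between -1.52 and -1.41 under every setting. No result reversed. The replicate numbers share no stated batch, and same-numbered libraries correlated at 0.004, 0.046, 0.084 and 0.031 in their deviations from the group means. Hairpin B replicates 2, 3 and 4 each correlated best with the GFP library of the same number. Hairpin B replicate 1 correlated best with GFP replicate 2 (0.033). In the column names of the counts, a running number after the letter S is consecutive within each replicate number over all groups. What it marks is not stated, and whether libraries of the same replicate number share a batch was not tested. Depth limits genes below 1 CPM, of which 3.90% were called.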

Other observations

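Stress pathways of the endoplasmic reticulum and of amino acid supply were divided. For comparison, 13.6% of all tested genes were higher and 13.2% lower with hairpin B. Of 28 ATF4 and amino acid genes 5 were higher (2 to 3 without hairpin B replicate 1 or 3 or GFP replicate 1, 2 or 4) and 9 lower. Of 20 endoplasmic reticulum genes 6 were higher and 5 lower (2 to 3 without hairpin B replicate 1 or 2 or GFP replicate 3). Of 68 nuclear oxidative phosphorylation genes 14 were higher, or 9 with no filter on low counts, and 5 lower, or 1 to 3 when hairpin B replicate 3 or GFP replicate 2, 3 or 4 was left out. Of 14 contractile and myoepithelial genes 5 were higher, MYLK among them, and none was lower (1 without hairpin B replicate 4). The share of counts from mitochondrial ribosomal RNA was 0.272 to 0.439% in the GFP libraries and 0.429 to 0.586% with hairpin B.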
